A study of Caenorhabditis elegans with 8 samples.

Results

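The insulin-like peptide genes of Caenorhabditis elegans were followed here in arsenite-treated and water-treated worms labelled 5 days and 1 day. Members were all rows of the count table whose WormBase symbol is ins followed by a number, plus daf-28, which made 39 genes of the 46748 identifiers counted. The symbol ins-38, a pseudogene in RefSeq, was not matched to an identifier and was not analysed here. Messenger RNA came from whole hermaphrodites of the wild-type strain N2, with 2 libraries in each of 4 groups, namely arsenite at 5 days, water at 5 days, arsenite at 1 day and water at 1 day. The labels give 100 nM beside arsenite and beside water alike, and do not state how long the worms were exposed. The 1-day labels also carry a time of 24 h whose meaning is not given. The source labels give 5 days and 1 day with no starting point. Markers of the germline and oocytes, given below, were high at both, so the 1-day worms are not read as early larvae. The library numbers are 23 to 26 at 5 days and 31 to 34 at 1 day, so age and library batch cannot be told apart. Whether the 2 libraries of a group stem from separate cultures is not stated, so the p-values reflect the spread between these libraries, and that spread may be technical.

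Insulin-like peptides are short secreted hormones, made mainly by neurons and the intestine, that bind the receptor DAF-2. Peptides that activate DAF-2 switch on a kinase cascade that keeps the transcription factor DAF-16 out of the nucleus, while peptides that oppose the receptor let DAF-16 act on genes of stress resistance, dauer formation and long life. The worm carries far more insulin genes than mammals do, many of them in tandem groups, and different members act in larval arrest, germline growth, learning and immunity.

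The libraries held 21598326 to 27317490 counts, and the members together took 1071 to 1138 counts in each 5-day library and 444 to 505 in each 1-day library. Most members therefore rest on few counts, and raw read counts are given for each library as replicate 1 and then replicate 2 of a group. Levels are given as CPM, counts scaled to library size with TMM factors. In bulk RNA from whole worms, fewer cells of a type and less RNA per cell cannot be told apart. Between the replicates of a group the counts varied beyond sampling noise, at a chi-square of 4.067 to 8.253 per degree of freedom, and all 8 libraries were kept as separate samples. Of the 39 members, 25 passed the low-count filter and were tested. The other 14 are described by their counts alone.

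**Figure D1:**
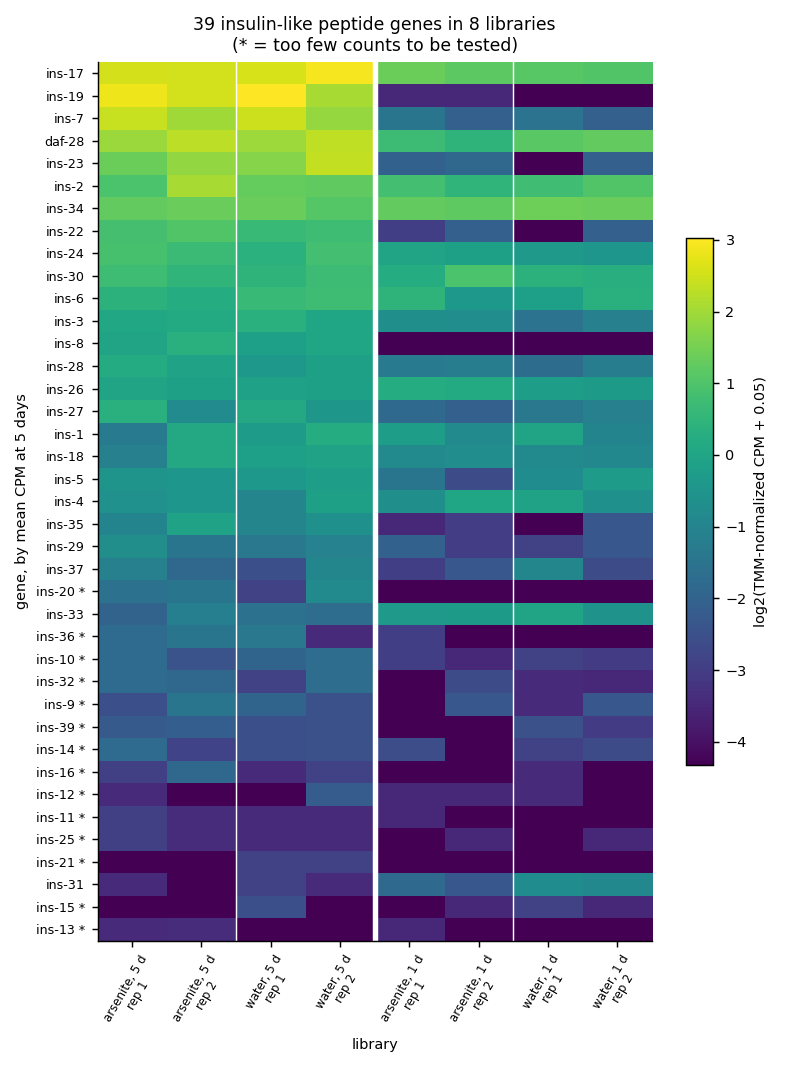
Level of each of the 39 members (rows, ordered by mean level at 5 days) in each of the 8 libraries (columns), as log2 of TMM-normalized CPM plus 0.05, with asterisks on the 14 members that were not tested. The 4 columns of 5-day libraries are brighter than the 4 of 1-day libraries for genes such as ins-19, ins-7 and ins-8, and darker for ins-31 and ins-33.

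Taken as a sum, the family stood at 46.1 and 48.2 CPM in arsenite and 47.4 and 48.0 CPM in water at 5 days, against 18.5 and 17.2 CPM in arsenite and 18.8 and 18.9 CPM in water at 1 day. The 5-day sum was 2.64 times the 1-day sum in arsenite and 2.53 times in water. Arsenite and water libraries of the same age lay within a few CPM of each other. The genes behind the sum differed between the ages. At 5 days the 5 members with the most counts were ins-19, ins-17, ins-7, daf-28 and ins-23, which together made 49.2 to 56.1% of the family's counts in a library. At 1 day they were ins-34, ins-17, daf-28, ins-2 and ins-30, with 50.7 to 53.5%.

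Per kilobase of exon the order of the levels also differed. In water at 5 days ins-19 led with 16.97 CPM per kb, followed by ins-17 (12.2), ins-7 (10.7), ins-23 (10.5) and daf-28 (5.72). In water at 1 day ins-34 led with 5.01 CPM per kb, followed by ins-17 (3.71), ins-2 (3.17), daf-28 (2.94) and ins-6 (1.999). In arsenite ins-19 was again first at 5 days (17.8 CPM per kb) and ins-34 first at 1 day (4.53). Exon lengths are those of the current annotation, which may differ from the release the authors counted with.

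The comparison of 5 days with 1 day asked which peptide messages differed with age. In arsenite 14 members were higher and 2 lower at 5 days, and in water 13 were higher and 2 lower (edgeR quasi-likelihood test, adjusted p under 0.05). Over all 14449 genes tested, 30.3% were called higher and 29.4% lower in arsenite, and 30.1% were called higher and 30% lower in water, so 59.6% of all genes were called in arsenite and 60.1% in water in either direction. The median log2 fold change of the tested members was 1.28 in arsenite and 0.95 in water, against 0.01 over all genes in each. Genes at 0 counts at 1 day lie above the median even at their bounds, so setting them there could not change it. The counts of calls and the medians are not read as a property of the family, because 10 of the 25 tested members (ins-7, ins-8, ins-19, ins-22, ins-23, ins-27, ins-28, ins-29, ins-35 and ins-37) reached the count minimum only in 5-day libraries, and 2 (ins-31 and ins-33) only in 1-day libraries. Among the 13 members that reached the minimum within each age, 5 were higher in arsenite (38.5%, against 30% of all such genes) and 4 in water (30.8%, against 29.8%), a share in water close to the background. None of the 13 was lower, against 29.6% of such genes in arsenite and 30.2% in water.

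The arsenite and the water comparisons use different libraries, but they come from 1 fit that shares its estimate of the spread. In both, age goes with library number. Of the 17 members called in either, 14 were called in both, 12 of them higher and 2 lower each time, with no opposite sign. Most of the 14 reached the count minimum at 1 age only, which favours that sign in both comparisons. The share of all genes called in both was not computed, so the match is not read as a result. In 13 tested members every 5-day library lay above every 1-day library, and in 2, ins-31 and ins-33, every 5-day library lay below. Over all genes tested, 33.2% lay wholly above and 32.3% wholly below. The count of members is partly set by the filter, since 9 of the 13 reached the count minimum only at 5 days and the 2 below only at 1 day. Of the 13 members that reached it within each age, 4 lay wholly above and 0 wholly below, against 33% and 32.5% of such genes.

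**Figure D2:**
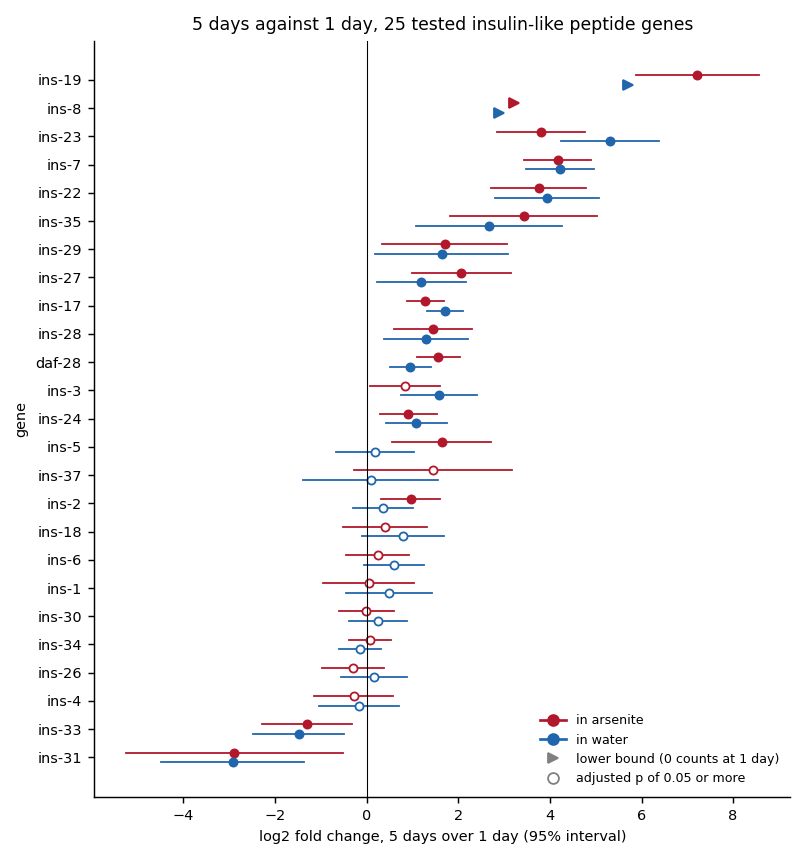
Log2 fold change of 5 days over 1 day for the 25 tested members, in arsenite (red) and in water (blue), with 95% intervals. Filled circles passed the edgeR test, open circles did not, and triangles are lower bounds for genes with 0 counts at 1 day. From ins-19 down to daf-28, and in ins-24, both comparisons were called higher, while ins-31 and ins-33 were called lower.

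Members reported to promote DAF-2 signalling were called in both directions. Of 7 such genes (daf-28, ins-3, ins-4, ins-6, ins-7, ins-33 and ins-35, a list chosen from reported roles), 3 rose and 1 fell in arsenite, and 4 rose and 1 fell in water. That is 57.1% called in arsenite and 71.4% in water, beside 59.6% and 60.1% of all genes. Higher calls made 42.9% in arsenite and 57.1% in water, beside 30.3% and 30.1% of all genes. Lower calls made 14.3% in each, beside 29.4% and 30%. Of the called genes, ins-7 and ins-35 reached the count minimum only at 5 days and ins-33 only at 1 day, which favours their signs. The directions are therefore not read as a result about these members. The gene ins-7, on chromosome IV from 9682011 to 9682845, encodes a peptide of the intestine and of neurons whose message is known to be repressed by DAF-16. It had 128 and 86 counts in arsenite and 131 and 84 in water at 5 days, against 8 and 5 in arsenite and 7 and 5 in water at 1 day. Every 5-day library was at least 10 times above every 1-day library in counts, and arsenite and water overlapped at both ages. Its level was 4.55 ± 0.963 CPM in arsenite at 5 days, against 0.250 ± 0.0881 CPM at 1 day (SD, n = 2). In water it was 4.53 ± 1.31 CPM at 5 days, against 0.241 ± 0.0772 CPM at 1 day (SD, n = 2). Its log2 fold change was 4.17 (SE 0.35, edgeR adjusted p = 6.201e-10) in arsenite and 4.22 (SE 0.36, 7.114e-10) in water. The ratio of counts was 18.4 (10.6 to 35.2) in arsenite and 19.1 (10.7 to 37.5) in water, with 95% intervals that cover counting error only.

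The gene daf-28, on chromosome V from 19815133 to 19816454, encodes a peptide of sensory neurons that keeps larvae out of the dauer state. It had 92 and 109 counts in arsenite and 92 and 115 in water at 5 days, against 41 and 35 in arsenite and 51 and 63 in water at 1 day. All 5-day libraries were above all 1-day libraries. The level was 4.33 ± 0.810 CPM at 5 days against 1.46 ± 0.203 CPM at 1 day in arsenite, and 4.38 ± 0.775 against 2.26 ± 0.140 CPM in water (SD, n = 2). The log2 fold change was 1.57 (SE 0.23, edgeR adjusted p = 3.731e-06) in arsenite and 0.95 (SE 0.22, 0.0006055) in water.

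The gene ins-35, an intestinal peptide gene on chromosome V from 20375536 to 20376302, stood at a lower level. It had 11 and 20 counts in arsenite and 11 and 14 in water at 5 days, against 1 and 2 in arsenite and 0 and 4 in water at 1 day. The groups of the 2 ages did not overlap. The fitted log2 fold change was 3.43 (SE 0.78, edgeR adjusted p = 0.0006086) in arsenite and 2.66 (SE 0.77, 0.004829) in water, and the ratio of counts was 11.6 (3.61 to 59.2) and 6.66 (2.30 to 26.3). In water the call was lost without replicate 1 at 1 day, the library with 0 counts, where the log2 fold change was 1.79 (adjusted p = 0.06839). Without replicate 2 at 1 day no count was left in that group, and the fitted value of 6.70 then depends on the prior count. Over all alternatives the adjusted p in water ran from 0.001197 to 0.06839.

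The genes ins-3 and ins-33 are known for supporting germline proliferation in larvae, and in water they moved in opposite directions. The gene ins-3, on chromosome II from 5990099 to 5990768, had 24 and 24 counts in arsenite and 29 and 22 in water at 5 days, against 15 and 15 in arsenite and 7 and 11 in water at 1 day. It rose in water (log2 fold change 1.58, SE 0.40, edgeR adjusted p = 0.001769) and missed the threshold in arsenite (0.84, SE 0.37, adjusted p = 0.05508), although every 5-day library lay above every 1-day library. The gene ins-33, on chromosome I from 13637845 to 13639311, had 5 and 9 counts in arsenite and 7 and 6 in water at 5 days, against 19 and 20 in arsenite and 22 and 17 in water at 1 day. All 5-day values lay below all 1-day values.

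The log2 fold change of ins-33 was -1.30 (SE 0.48, edgeR adjusted p = 0.02245) in arsenite and -1.48 (SE 0.48, 0.01097) in water. In arsenite the call was lost without arsenite replicate 1 at 5 days (-0.88, adjusted p = 0.1963) and without arsenite replicate 1 (-1.30, 0.07033) or 2 (-1.29, 0.07795) at 1 day. In water it was lost without water replicate 2 at 5 days (-1.40, 0.05858) and without water replicate 1 at 1 day (-1.20, 0.1049). DESeq2 lost it in arsenite (-1.31, adjusted p = 0.1258) and in water (-1.51, 0.07629). Over all alternatives the adjusted p ran from 0.01617 to 0.1963 in arsenite and from 0.01002 to 0.1049 in water.

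The other promoting members, ins-4 and ins-6, which act with daf-28 in dauer entry and exit, did not pass. The gene ins-6 had 31 and 25 counts in arsenite and 37 and 38 in water at 5 days, against 34 and 19 in arsenite and 20 and 33 in water at 1 day. For ins-4 the counts were 15 and 15 in arsenite and 11 and 20 in water at 5 days, against 15 and 26 in arsenite and 21 and 16 in water at 1 day. Over both treatments the ages overlapped for both genes, although the water libraries of ins-6 were higher at 5 days than at 1 day. The 95% interval of the log2 fold change was -0.46 to 0.93 in arsenite and -0.07 to 1.26 in water for ins-6, and -1.15 to 0.58 and -1.04 to 0.71 for ins-4.

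Among the members reported to oppose DAF-2, which are ins-1, ins-17 and ins-18, only ins-17 passed, in arsenite and in water, and whether it differs from the others was not tested. It lies on chromosome III from 4476918 to 4477572. It had 144 and 128 counts in arsenite and 144 and 176 in water at 5 days, against 66 and 59 in arsenite and 50 and 54 in water at 1 day. The ages were well apart. Its level was 5.82 ± 0.0887 against 2.39 ± 0.256 CPM in arsenite and 6.77 ± 1.09 against 2.07 ± 0.0682 CPM in water (SD, n = 2). The log2 fold change was 1.28 (SE 0.19, edgeR adjusted p = 4.493e-06) in arsenite and 1.71 (SE 0.19, 7.833e-08) in water.

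The gene ins-1, which acts in associative learning, had 9 and 23 counts in arsenite and 19 and 26 in water at 5 days, against 21 and 14 in arsenite and 22 and 12 in water at 1 day. For ins-18 the counts were 10 and 23 in arsenite and 20 and 21 in water at 5 days, against 13 and 15 in arsenite and 12 and 13 in water at 1 day. The ages overlapped in ins-1 in both treatments, and in ins-18 in arsenite but not in water. The 95% intervals of the log2 fold change ran from -0.96 to 1.43 over both treatments for ins-1 and from -0.51 to 1.698 for ins-18.

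Of the 39 members, 25 lie within 10000 bases of another member, and 17 of these were among the 25 tested. Whether neighbours differ from other members was not tested. The genes ins-19 (chromosome II from 3126037 to 3126441, minus strand) and ins-31 (3127041 to 3127831, plus strand) are transcribed away from each other with 599 bases between them, and they differed with age in opposite directions. The gene ins-19 had 176 and 126 counts in arsenite and 195 and 97 in water at 5 days, against 1 and 1 in arsenite and 0 and 0 in water at 1 day. It had the highest level per kilobase of the family at 5 days and was nearly absent at 1 day. The 5-day level was 6.43 ± 1.08 CPM in arsenite and 6.14 ± 2.81 CPM in water (SD, n = 2). In arsenite the ratio of counts was 169 (46.4 to 1403). In water it was at least 51.9-fold higher at 5 days, with 3 counts per library set as the floor for the libraries at 0. The edgeR adjusted p was 1.214e-06 in arsenite and 1.173e-06 in water.

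The gene ins-31 had 1 and 0 counts in arsenite and 2 and 1 in water at 5 days, against 6 and 4 in arsenite and 13 and 13 in water at 1 day. All 5-day libraries were below all 1-day libraries. The ratio of 5 days to 1 day was 0.112 (0.00258 to 0.787) in arsenite and 0.123 (0.0238 to 0.401) in water, with intervals for counting error only. The log2 fold change was -2.89 (SE 1.14, edgeR adjusted p = 0.03323) in arsenite and -2.93 (SE 0.75, 0.001911) in water. The call in arsenite was lost without arsenite replicate 2 at 5 days (-2.11, adjusted p = 0.1776), without arsenite replicate 1 (-2.55, 0.1519) or 2 (-3.17, 0.0523) at 1 day and without water replicate 2 at 1 day (-2.89, 0.05133). It was also lost under DESeq2 (-3.18, adjusted p = 0.1244) and without the filter on low counts (-2.90, 0.05095). Over the alternatives its adjusted p ran from 0.006534 to 0.1776.

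The genes ins-8 (chromosome IV from 9680337 to 9680941) and ins-7 lie on the minus strand with 1069 bases between them, and both rose. For ins-8 there were 23 and 27 counts in arsenite and 20 and 22 in water at 5 days, against 0 in each of the 4 libraries at 1 day. The gene was thus detected in every 5-day library and in no 1-day library. It was at least 9.33-fold higher at 5 days in arsenite and at least 7.46-fold higher in water, with the floor of 3 counts per library at 1 day. The edgeR adjusted p was 8.876e-07 in arsenite and 3.133e-06 in water.

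The genes ins-21, ins-22 and ins-23 follow each other on the plus strand of chromosome III, with 2080 and 1560 bases between them. The gene ins-22 (10026289 to 10026686) had 43 and 44 counts in arsenite and 37 and 38 in water at 5 days, against 2 and 5 in arsenite and 0 and 5 in water at 1 day. The gene ins-23 (10028247 to 10028697) stood at 2.53 and 3.51 CPM in arsenite and 3.17 and 5.10 CPM in water at 5 days, against 0.195 and 0.225 CPM in arsenite and 0 and 0.187 CPM in water at 1 day. Both genes were higher in every 5-day library than in any 1-day library. The gene ins-21 (10023752 to 10024208) had 2 and 2 counts in water at 5 days and 0 in the other 6 libraries, too few to be tested. The ratio of counts for ins-22 was 13.9 (6.48 to 35.7) in arsenite and 15.98 (6.55 to 50.7) in water, with edgeR adjusted p of 9.666e-07 and 1.918e-06.

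For ins-23 the ratio was 14.3 (7.73 to 29.2) in arsenite and 41.6 (17.5 to 129) in water, with edgeR adjusted p of 1.288e-06 and 7.174e-08. The fitted log2 fold changes in water, 3.94 (SE 0.55) for ins-22 and 5.31 (SE 0.51) for ins-23, depend on water replicate 1 at 1 day, which had 0 counts of ins-22, ins-23 and ins-35. Without it they were 3.05 and 4.43. Without water replicate 2 at 1 day no count of either gene was left in that group, the fitted values of 8.27 and 9.65 then depend on the prior count, and the calls were kept in both cases.

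**Figure D3:**
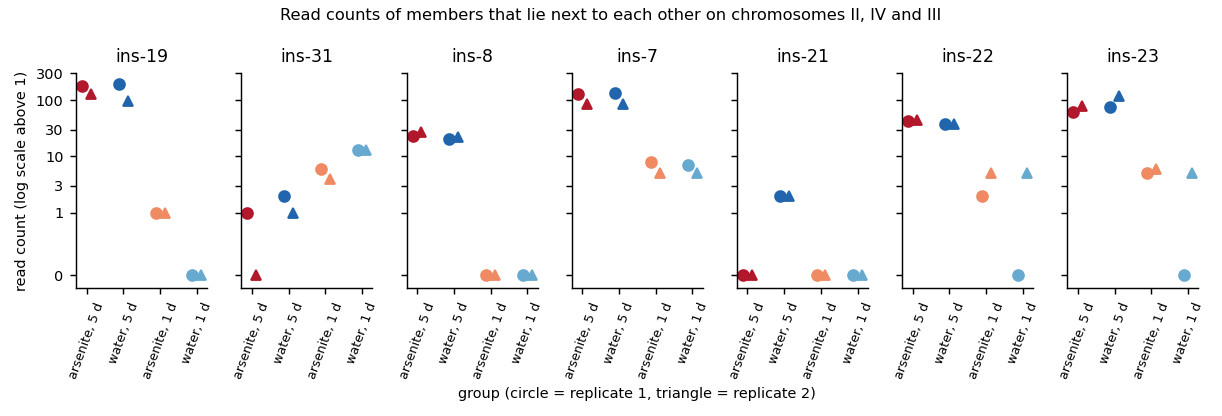
Read counts (log scale above 1) in each library of 7 members that lie beside each other on chromosomes II, IV and III. In ins-19, ins-8, ins-7, ins-22 and ins-23 the 5-day libraries lie above the 1-day libraries, in ins-31 they lie below, and ins-21 had 2 counts at most.

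The 7 members grouped on chromosome I between 14012369 and 14037777 (ins-28, ins-29, ins-25, ins-27, ins-24, ins-30 and ins-26, in this order) gave a mixed picture. Of these, ins-24, ins-27, ins-28 and ins-29 rose in arsenite and in water, ins-30 and ins-26 did not pass in either, and ins-25 had too few counts to be tested. The gene ins-24 had 44 and 35 counts in arsenite and 30 and 40 in water at 5 days, against 24 and 23 in arsenite and 17 and 18 in water at 1 day. For ins-28 they were 27 and 20 in arsenite and 17 and 20 in water, against 9 and 10 in arsenite and 6 and 10 in water. The ages did not overlap in either gene. The gene ins-27 had 30 and 12 counts in arsenite and 25 and 16 in water at 5 days, against 6 and 5 in arsenite and 8 and 11 in water at 1 day. For ins-29 they were 14 and 7 in arsenite and 8 and 10 in water, against 5 and 2 in arsenite and 2 and 4 in water. The 5-day libraries of both genes were again above the 1-day libraries.

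Each call of this group was lost on leaving out at least 1 single library or under DESeq2, and adjusted p-values are edgeR's unless DESeq2 is named. For ins-24 the value was 0.91 (SE 0.30, edgeR adjusted p = 0.01221) in arsenite and 1.09 (SE 0.32, 0.005841) in water. The call in arsenite was lost without arsenite replicate 1 at 5 days (0.80, 0.07836) or arsenite replicate 2 at 1 day (0.85, 0.07065), and that in water without water replicate 2 at 5 days (0.84, 0.08041). For ins-27 it was 2.06 (SE 0.52, 0.001653) in arsenite and 1.19 (SE 0.47, 0.0329) in water. These were lost without arsenite replicate 1 at 5 days (1.33, 0.09908) and without water replicate 1 at 5 days (0.85, 0.2387) or water replicate 1 (1.06, 0.1389) or 2 (1.34, 0.08516) at 1 day. For ins-28 it was 1.46 (SE 0.41, 0.004194) in arsenite, kept whichever library was left out, and 1.29 (SE 0.45, 0.01589) in water, lost without water replicate 2 at 5 days (1.15, 0.08975) or water replicate 1 at 1 day (1.05, 0.111). For ins-29 it was 1.71 (SE 0.66, 0.02949) in arsenite and 1.64 (SE 0.70, 0.04831) in water. The call in arsenite was lost without arsenite replicate 1 at 5 days (1.19, 0.275) or arsenite replicate 2 at 1 day (1.18, 0.2283), and that in water on leaving out any 1 of the 8 libraries (0.05352 to 0.2129) or the filter on low counts (0.06994). DESeq2 lost the call of ins-24 in arsenite (adjusted p = 0.0972), of ins-27 in water (0.1484), of ins-28 in arsenite (0.05275) and in water (0.09793), and of ins-29 in arsenite (0.1573) and in water (0.18). Over all alternatives the adjusted p ran from 0.01225 to 0.0972 in arsenite and from 0.003786 to 0.08041 in water for ins-24. For ins-27 it ran from 0.0001651 to 0.1003 in arsenite and from 0.01379 to 0.2387 in water. For ins-28 it ran from 0.003679 to 0.05275 in arsenite and from 0.01629 to 0.111 in water. For ins-29 it ran from 0.02306 to 0.2799 in arsenite and from 0.03838 to 0.2129 in water.

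The 2 members of this group that did not pass lie side by side, 1093 bases apart. For ins-30 there were 40 and 30 counts in arsenite and 32 and 37 in water at 5 days, against 29 and 50 in arsenite and 30 and 32 in water at 1 day. For ins-26 there were 23 and 19 in arsenite and 21 and 20 in water at 5 days, against 29 and 29 in arsenite and 19 and 20 in water at 1 day. Over both treatments the ages overlapped in both genes. Within a treatment, the 5-day libraries of ins-26 lay below the 1-day libraries in arsenite and above them in water, in CPM. For ins-30 the ages overlapped in arsenite, and in water the 5-day libraries lay above. The 95% intervals of the log2 fold change, over both treatments, ran from -0.61 to 0.87 for ins-30 and from -0.97 to 0.88 for ins-26.

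A second group lies on chromosome II from 5988524 to 6011321 and holds ins-2, ins-3, ins-4, ins-5, ins-6 and ins-20. Of these, ins-2 and ins-5 rose in arsenite and did not pass in water, ins-3 rose in water and did not pass in arsenite, and the test of the difference between the treatments passed for none of them (adjusted p = 0.9999 each). The gene ins-5 had 16 and 15 counts in arsenite and 17 and 19 in water at 5 days, against 8 and 3 in arsenite and 13 and 21 in water at 1 day. The arsenite libraries at 1 day were the low ones. Its log2 fold change was 1.63 (SE 0.52, edgeR adjusted p = 0.009911) in arsenite, lost without arsenite replicate 2 at 1 day (1.08, adjusted p = 0.1381) and under DESeq2 (1.64, 0.05785), and 0.18 (SE 0.41) in water. Over all alternatives the adjusted p in arsenite ran from 0.007444 to 0.1381. The gene ins-2 had 46 and 92 counts in arsenite and 58 and 54 in water at 5 days, against 44 and 36 in arsenite and 39 and 54 in water at 1 day. Arsenite replicate 2 at 5 days stood above every other library. In arsenite the log2 fold change was 0.96 (SE 0.31, edgeR adjusted p = 0.01222), and in water it was 0.36 (SE 0.31). The call in arsenite was lost without arsenite replicate 2 at 5 days (0.28, adjusted p = 0.4695) or at 1 day (0.79, 0.109), and over all alternatives the adjusted p ran from 3.495e-05 to 0.4695.

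At the far end of this group ins-20 (6010844 to 6011321) resembled ins-8 at a lower level. It had 7 and 7 counts in arsenite and 2 and 12 in water at 5 days, against 0 in each of the 4 libraries at 1 day. It was not tested. Over both treatments it was at least 2.55-fold higher at 5 days by counts.

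Of the remaining tested members, ins-34 was the most evenly expressed, with 57 and 56 counts in arsenite and 60 and 49 in water at 5 days, against 60 and 60 in arsenite and 61 and 67 in water at 1 day. The 95% interval of its log2 fold change was -0.38 to 0.54 in arsenite and -0.60 to 0.32 in water. Its exons overlap those of nkcc-1 on the opposite strand, and without a stated strand setting their reads cannot be told apart over the shared bases. The gene ins-37 had 10 and 5 counts in arsenite and 3 and 11 in water at 5 days, against 2 and 4 in arsenite and 11 and 3 in water at 1 day. It did not pass in either treatment, and its exons overlap 2 noncoding genes.

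The 14 untested members had between 3 and 28 counts over all 8 libraries and 12 at most in any library. In 13 of them there were more counts over the 4 libraries at 5 days than over the 4 at 1 day, and ins-15 was the other, with 3 against 4. The share over all genes that failed the filter was not computed, so the 13 are not read as a result about the family. Summed over both treatments, 8 of the 14 untested members had 10 counts or more. The gene ins-36 had 22 counts at 5 days against 2 at 1 day (ratio 12.0, 2.95 to 105), and ins-16 had 10 against 1 (10.9, 1.55 to 474). For ins-32 there were 19 against 5 (4.15, 1.499 to 14.2), for ins-10 20 against 7 (3.12, 1.27 to 8.74) and for ins-39, known from the thermosensory neuron AFD, 14 against 5 (3.06, 1.04 to 10.9). The intervals cover counting error only and leave out the spread between libraries. For ins-9 there were 18 against 9 (2.19, 0.932 to 5.52) and for ins-14 14 against 8 (1.91, 0.749 to 5.26), whose intervals include a ratio of 1. The intestinal gene ins-11, known from responses to pathogens, had 5 counts against 1, ins-12 had 5 against 3, ins-25 had 5 against 2, ins-21 had 4 against 0 and ins-13 had 2 against 1. Exons of ins-10, ins-13 and ins-36 overlap those of other genes, so their reads are uncertain.

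Markers of the cells that make these peptides gave a mixed picture between the ages. Of the intestinal markers 87.5% were called in arsenite and 75% in water, all lower, beside 59.6% and 60.1% of all genes called. Of the neuronal markers 36.4% and 54.5% were called, below the shares of all genes. The AFD, ASI and ASJ markers were also called at lower shares than all genes. The summed level of 11 neuronal markers was 369 to 388 CPM in arsenite and 394 to 397 CPM in water at 5 days, against 257 to 268 CPM in arsenite and 249 to 267 CPM in water at 1 day. None was at 0, and 1 of 11 rose and 3 fell in arsenite, while 3 rose and 3 fell in water, with snb-1, which encodes synaptobrevin, at 1.04 (SE 0.06) and 1.14 (SE 0.06). That gene alone held 256 CPM in arsenite and 270 CPM in water at 5 days, against 123.9 and 122.5 CPM at 1 day. The higher neuronal sum thus rests on snb-1. The 11 markers had a median log2 fold change of -0.14 in arsenite and -0.04 in water. Markers of the intestine, 8 genes, summed to 300 to 347 CPM in arsenite and 315 to 361 CPM in water at 5 days, against 1053 to 1145 and 1081 to 1104 CPM at 1 day, and 7 of 8 fell in arsenite and 6 of 8 in water. The genes ins-7, of the intestine and of neurons, and ins-35, of the intestine, were higher at 5 days. Both reached the count minimum only at 5 days, and whether the intestinal markers bear on their levels was not tested. The 4 markers of the AFD neurons summed to 6.62 to 6.79 CPM in arsenite and 6.604 to 6.669 CPM in water at 5 days, against 9.16 to 9.17 and 8.78 to 9.18 CPM at 1 day, and 1 of 4 (ttx-1) fell in each treatment. The 5 markers of the sensory neurons ASI and ASJ, which express daf-28, summed to 5.97 to 6.98 CPM in arsenite and 6.73 to 7.42 CPM in water at 5 days, against 6.23 to 6.87 and 6.005 to 6.46 CPM at 1 day, with str-3 at 0 in both libraries of 3 of the 4 groups. Of the 4 tested, 1 rose and 0 fell in arsenite and 1 rose and 1 fell in water.

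Markers of embryos, 7 genes, summed to 40.0 to 43.6 CPM in arsenite and 38.7 to 43.7 CPM in water at 5 days, against 79.5 to 79.6 and 74.8 to 75.3 CPM at 1 day, and 3 rose and 4 fell in arsenite while 2 rose and 4 fell in water. The germline and oocyte markers, 8 genes, stayed within 5527 to 5593 CPM in arsenite and 5532 to 5547 CPM in water at 5 days and within 5614 to 5852 and 5691 to 5831 CPM at 1 day, with 2 higher and 1 lower in arsenite and 2 higher and 2 lower in water. Muscle markers, 4 genes, summed to 941 to 964 CPM in arsenite and 958 to 1098 CPM in water at 5 days, against 3370 to 3575 and 3430 to 3517 CPM at 1 day, and all 4 fell in each treatment. Markers of the hypodermis, 4 genes, summed to 33.2 to 33.3 and 36.0 to 41.5 CPM at 5 days, against 464 to 526 and 479 to 528 CPM at 1 day, with 1 higher and 2 lower in arsenite and 1 higher and 3 lower in water. Most of that 1-day sum was col-19, at 479 CPM in arsenite and 485 CPM in water, against 18.5 and 20.3 CPM at 5 days. Sperm markers, 5 genes, summed to 3.56 to 4.42 and 3.002 to 4.04 CPM at 5 days, against 6.23 to 6.87 and 6.203 to 6.51 CPM at 1 day, and 2 of 5 fell in each treatment. Each pair of ranges has arsenite before water. Over all genes, 59.6% were called in arsenite and 60.1% in water, so a count of called markers is not read alone. The part of these shifts in cell markers in the levels of the insulin-like peptide genes was not tested.

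Genes that make and read the peptides were called in both directions, at shares near those of all genes. Of 14 genes of the receptor pathway, 6 rose and 3 fell with age in arsenite and in water, with a median log2 fold change of 0.14 and 0.11. That is 64.3% called in each treatment, beside 59.6% of all genes in arsenite and 60.1% in water. Among them akt-2, a kinase downstream of DAF-2, rose by 1.03 (SE 0.12, edgeR adjusted p = 1.47e-07) in arsenite and 0.96 (SE 0.12, 4.45e-07) in water, and pdk-1, the kinase that activates it, by 0.77 (SE 0.08, 1.979e-08) and 0.65 (SE 0.08, 3.489e-07). The phosphatase subunit gene pptr-1 stood at -0.40 (SE 0.06, 4.866e-06) and -0.60 (SE 0.06, 1.244e-08), and the kinase gene age-1 at -0.33 (SE 0.06, 2.781e-05) and -0.32 (SE 0.06, 4.386e-05).

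Of 16 genes for cutting, packing and releasing peptides, 5 rose and 5 fell in arsenite and 6 rose and 3 fell in water, with a median log2 fold change of 0.04 in arsenite and 0.10 in water. That is 62.5% called in arsenite and 56.2% in water, beside 59.6% and 60.1% of all genes. The convertase gene aex-5 was at -1.38 (SE 0.12, edgeR adjusted p = 5.723e-10) in arsenite and -1.48 (SE 0.12, 1.944e-10) in water, and the convertase gene kpc-1 at -0.45 (SE 0.09, 0.0001433) and -0.58 (SE 0.09, 7.53e-06). The chaperone gene of a convertase, sbt-1, rose by 0.35 (SE 0.10, 0.00336) and 0.49 (SE 0.10, 0.0001393). The small GTPase gene unc-108, which acts in the maturation of secretory vesicles, rose by 0.37 (SE 0.07, 7.064e-05) and 0.41 (SE 0.07, 2.14e-05).

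Other peptide families also held more higher than lower calls, beside 30.3% of all genes higher and 29.4% lower in arsenite and 30.1% and 30% in water. Of 62 tested nlp genes, which encode neuropeptide-like proteins, 31 were higher and 2 lower at 5 days in arsenite, and 37 were higher and 2 lower in water. Of 30 tested flp genes, which encode FMRFamide-like peptides, 15 were higher and 0 lower in arsenite and 14 were higher and 1 lower in water. The median log2 fold change was 0.68 and 0.75 for nlp genes and 0.44 and 0.48 for flp genes, arsenite before water, beside 1.28 and 0.95 for the insulin-like peptide genes. The filter bears on these counts and medians too. Only at 5 days was the count minimum reached by 17 of the 62 nlp genes, 1 of the 30 flp genes and 10 of the 25 insulin-like peptide genes. Among the 44 nlp genes that reached it within each age, 23 were higher and 1 lower in arsenite and 25 were higher and 1 lower in water. Among the 29 such flp genes, 14 were higher and 0 lower in arsenite and 13 were higher and 1 lower in water. Among the 13 such insulin-like peptide genes, 5 were higher and 0 lower in arsenite and 4 were higher and 0 lower in water. Higher calls made 52.3% of such nlp genes, 48.3% of flp and 38.5% of insulin-like peptide genes in arsenite, beside 30% of all such genes. In water they made 56.8%, 44.8% and 30.8% in the same order, beside 29.8%. Whether the families differ was not tested.

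The comparison of arsenite with water asked whether the treatment moved any of the peptide messages. No member passed at 5 days or at 1 day. Over all genes tested, 0.0138% were called at 5 days and 0% at 1 day, so the count of 0 is what the background gives. DESeq2 and limma voom also called 0 members at either age. Before adjustment, 0 members and 573 genes in all were under 0.05 in edgeR at 5 days, and 3 members and 238 genes at 1 day. The median log2 fold change of the 25 members was 0.05 at 5 days and 0.06 at 1 day, against -0.0042 and -0.0018 over all genes.

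At 5 days the members of smallest p were ins-23, ins-17 and ins-6, none of them passing. The level of ins-23 was 3.02 ± 0.690 CPM in arsenite and 4.14 ± 1.37 CPM in water (SD, n = 2). The libraries overlapped, and the log2 fold change was -0.45 (SE 0.29). Each of the 3 had an edgeR adjusted p of 0.9994. For ins-17 the level was 5.82 ± 0.0887 CPM in arsenite and 6.77 ± 1.09 CPM in water (SD, n = 2), or -0.22 (SE 0.17) on the log2 scale, and both arsenite libraries were below both water libraries. For ins-6 it was 1.20 ± 0.100 CPM in arsenite and 1.59 ± 0.0617 CPM in water (SD, n = 2), or -0.40 (SE 0.32) on the log2 scale, again with both arsenite libraries below both water libraries. Picking genes by their p favours such a separation, and its share over all genes was not computed.

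At 1 day the members of smallest p were ins-5, daf-28 and ins-31, again none passing. The gene ins-5 had 8 and 3 counts in arsenite, against 13 and 21 in water, and stood at -1.65 (SE 0.52) on the log2 scale. The gene daf-28 had 41 and 35 counts in arsenite, against 51 and 63 in water. This was 1.46 ± 0.203 CPM in arsenite and 2.26 ± 0.140 CPM in water (SD, n = 2), or -0.63 (SE 0.25) on the log2 scale. The gene ins-31 had 6 and 4 counts in arsenite, against 13 and 13 in water, or -1.41 (SE 0.58) on the log2 scale. The edgeR adjusted p of each was 1. In all 3 genes both arsenite libraries lay below both water libraries at 1 day, while at 5 days the libraries of daf-28 overlapped. The 3 were picked by their p in this comparison, so the separation follows in part from the choice. The share of all genes with such a separation was not computed. For ins-5 the arsenite libraries were also lower at 5 days, with 16 and 15 counts against 17 and 19 in water (-0.19, SE 0.42).

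**Figure D4:**
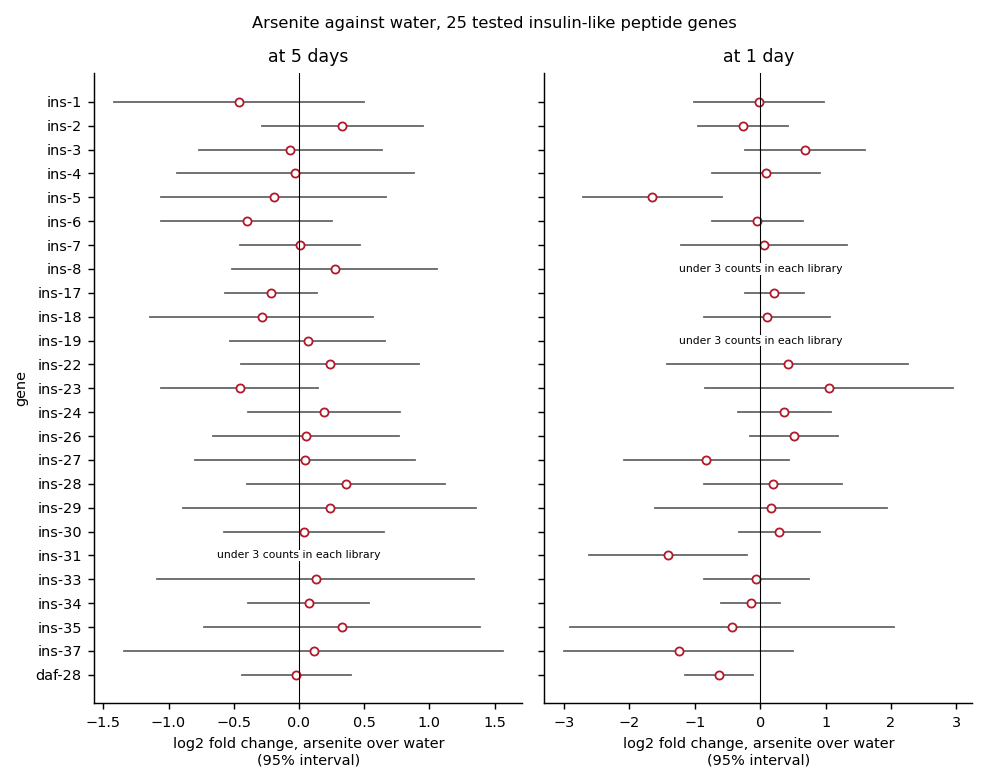
Log2 fold change of arsenite over water for the 25 tested members at 5 days (left) and at 1 day (right), with 95% intervals. All circles are open because no member passed. The intervals of ins-5, ins-31 and daf-28 at 1 day lie below 0 before adjustment over all genes. Members with under 3 counts in every library of an age have no value.

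Whether the effect of arsenite differed between the ages was tested as an interaction, which passed for no member and for 0% of all genes. The members of smallest p were ins-5 (log2 difference 1.46, SE 0.67), daf-28 (0.61, SE 0.32) and ins-23 (-1.505, SE 0.94), each at an edgeR adjusted p of 0.9999. Before adjustment, 1 member (ins-5) and 368 genes in all were under 0.05. DESeq2 and limma voom called 0 members here too.

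The 5-day libraries also differed along their library numbers. Libraries 23 (water) and 24 (arsenite) are replicate 1 of their groups, and 25 (water) and 26 (arsenite) are replicate 2. With the 2 pairs set against each other in edgeR, ins-19 was higher in 23 and 24 than in 25 and 26 (log2 difference 0.65, SE 0.17, adjusted p = 0.02598), as 1 of 25 members. Of all genes, 3.22% differed in this way, 1.2% higher and 2.02% lower. For ins-7, with 131 and 128 counts in 23 and 24 against 84 and 86 in 25 and 26, the log2 difference was 0.52 (SE 0.18, adjusted p = 0.1184). The differences of ins-19 and ins-7 between 5 days and 1 day were called with either pair of libraries left out.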

How the data were processed

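Gene counts of 8 poly(A) RNA libraries were analysed. The deposited table holds whole-number read counts made by the authors; per the submitters' processing notes the tools were CASAVA 1.7, STAR 2.4.1d and featureCounts 1.4.6-p4 on build WBcel235. No source used here names the gene models, whether counting used strand, or how multi-mapping reads were handled, so reads in overlapping genes are uncertain. A second table, of RPKM values, was not used because a library's divisor changes from row to row, which leaves the libraries without a common scale. Symbols came from a WormBase table, and coordinates and exon lengths from Ensembl release 115 of the same build.

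The tests were run with edgeR 4.0.16 in R 4.3.3 (filterByExpr with a minimum count of 10 and a minimum total of 15, TMM, robust quasi-likelihood fit of 4 group means over all 8 libraries, Benjamini-Hochberg adjustment over 14449 genes, called under 0.05). Standard errors were derived by dividing each fold change by the root of its F. Count ratios carry exact 95% intervals that cover counting error only. Where all 1-day libraries of a ratio were at 0, each was set to 3 counts, and otherwise a library at 0 was left at 0. A gene reached the minimum within an age if 2 of its 4 libraries held the CPM of 10 counts in a library of median size. Alternatives were RLE scaling, no filter, DESeq2 1.42.0, limma 3.58.1 voom, the compared groups alone, each library left out, each 5-day pair of neighbouring library numbers left out, and library number pairs as a term. The members, the gene lists, the marker lists and the term for library numbers were chosen with earlier results of these data known. Named members are those called in a comparison of ages, the 3 of smallest p in each arsenite comparison, and untested members with 10 or more counts; other genes are the 4 of smallest p in water of a list, of which the text gives those of the receptor pathway and of peptide release.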

Additional observations from a re-analysis of the deposited data

How the results depend on the processing

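No paired analysis was possible because the labels give no replicate numbers, and the numbers used here only follow the order of the samples. Neighbouring library numbers, which no label calls a pair, were fitted as a term for the arsenite comparisons. In the age comparisons, 31 fold changes of members were called, and none changed sign under up to 15 alternatives each. Of these, 17 kept their call under each alternative that gave a value, and 14 lost it under at least 1, among left-out libraries, left-out 5-day pairs, DESeq2 and the fit without the filter. Leaving out a 5-day pair lost the call of ins-24, ins-27, ins-29 and ins-33 in arsenite with 23 and 24 left out, and of ins-2 and ins-31 in arsenite with 25 and 26 left out. In water it lost that of ins-27 and ins-29 with 23 and 24 left out, and of ins-24, ins-28 and ins-29 with 25 and 26 left out. The cause was not tested. DESeq2 called 10 members in arsenite, 10 of them higher and 0 lower, against 16 in edgeR, and 11 in water, 10 higher and 1 lower, against 15. In arsenite, 1 member was called lower without the filter on low counts, 1 with only the compared groups in the fit, 1 with libraries 23 and 24 left out and 1 with libraries 25 and 26 left out, against 2 in the fit to all libraries. With 1 library left out, members called numbered 11 to 17 in arsenite (11 to 15 higher, 0 to 2 lower) and 11 to 15 in water (10 to 13 higher, 1 to 2 lower), where the lone library of a group is assumed to vary like the others. No member was called in the arsenite comparisons or the difference under any alternative, with the term for library numbers included, and the 9 fold changes named there kept their sign. Over all genes, 2 were called between arsenite and water at 5 days, against 14 without the filter, 22 with the term for library numbers and 0 to 11 with 1 library left out. Depth limits the 14 untested members and the 1-day values of ins-8, ins-19, ins-22, ins-23, ins-29 and ins-35, which rest on 0 to 6 counts a library. It also limits the 5-day values of ins-31, which rest on 0 to 2 counts a library.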
